A study of Mus musculus with 32 samples.

Results

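The comparison described here set RNA from synaptic regions of the mouse tibialis anterior (TA) muscle (NMJ) against RNA from regions of the same muscle without a synapse (xNMJ), both at 10 months of age. It used every library labelled 10m NMJ or 10m xNMJ, 8 in each group and 16 of the 32 in the series, and covered 13990 tested genes of 24952 in the files. The other 16 libraries came from mice of 30 months and entered the same fit, where they added to the estimate of the spread. All mice were male wild-type C57BL/6JRj without a transgene or drug. They were caged singly and ate AIN93M diet, which by the study's methods held the coating polymer Eudragit without drug.
Synapses were found on cross sections with α-bungarotoxin, a toxin that binds the muscle acetylcholine receptor, and regions with or without the stain were cut out by laser capture, many regions pooled in each library. A captured synapse holds the muscle fibre's postsynaptic membrane and subsynaptic nuclei, the covering Schwann cells, matrix and capillary or connective tissue nearby. Because the RNA was bulk, more cells of a type and more RNA per cell cannot be told apart. The labels do not tie libraries to animals, so p values measure the spread between these libraries only.
The neuromuscular junction is where the motor axon releases acetylcholine onto the fibre. Nerve-derived agrin acts through LRP4 and the kinase MuSK to cluster receptors, and neuregulin acts through ErbB receptors, the kinase ERK and ETS transcription factors to drive receptor genes in the few nuclei under the synapse. The rest of the fibre is specialised for contraction and energy supply and silences these genes through its electrical activity.
NMJ libraries held between 7080227 and 16516788 counts, with a median of 9605869. The xNMJ libraries were shallower, with 4026648 to 10258988 counts and a median of 6062117 (p = 0.0131 by exact two-sided permutation, 0.0196 after adjustment over 6 library measures). Genes with at least 1 count numbered 15715 to 18036 in NMJ and 13819 to 15985 in xNMJ (exact permutation p = 0.0014, adjusted p = 0.0042). Insert size, the length of the sequenced cDNA fragment in the labels, was 52 to 131 bp in NMJ and 79 to 108 bp in xNMJ, a difference that did not pass (exact permutation p = 0.0863, adjusted p = 0.104). On the first principal component over all libraries, which held 20% of the variance, every 10m NMJ library lay on the opposite side of 0 from every 10m xNMJ library. Some libraries stood apart from their group. Replicate 7 of 10m xNMJ had the highest xNMJ value of several synaptic genes, and without it 912 genes were higher and 681 lower, against 909 and 706 with it. Replicate 8 of 10m NMJ had an insert of 52 bp where the next shortest in NMJ was 109 bp, and without it the difference in insert size passed (25.6 bp, exact permutation p = 0.000311), with 858 genes higher and 638 lower. Folds that moved by over 1.5 times without 1 library are given with and without it, except where a ratio of counts or a bound stands in place of the fit. Among the libraries of 30 months, xNMJ replicate 5 lay on the NMJ side of the first component (21.7, against -85.8 to -61.6 for the other 7), and without it 950 genes were higher and 754 lower at 10 months.
Both regions were muscle by their markers. The 5 most abundant genes were Tnnc2, Tnnt3, Acta1, Myh4 and Myl1 in NMJ and Tnnt3, Acta1, Myh4, Ckm and Tnnc2 in xNMJ, all of them fast-fibre contractile or energy genes. The 20 fibre markers took 14.8 to 19.6% of all counts in NMJ and 12.3 to 25.8% in xNMJ (exact permutation p = 0.656). Levels below are CPM, counts scaled to a common library total and then adjusted by TMM factors, which correct for a few genes that take many counts. These factors were 1.12 to 1.3 in NMJ and 0.74 to 0.906 in xNMJ, without overlap (exact permutation p = 0.000155, the smallest such a split can give, adjusted p = 0.000932).
A set of genes shared its counts and is kept apart in what follows. There were 88 tested genes, 0.629% of those tested, with a run of at least 31 A or T bases in a transcript, and together with 7 untested genes of this kind they took 1.74 to 16.2% of all counts in NMJ (median 8.62%) and 7.47 to 36.8% in xNMJ (median 21.4%, exact permutation p = 0.0106, adjusted p = 0.0196). Counts of 58 tested genes followed the sum of these genes over the 32 libraries with r above 0.99, and 57 of the 58 held such a run. Their fitted differences all fell in the narrow span from -2.0 to -1.85 on the log2 scale. In all 80 genes had r above 0.9, and each of the 80 passed the test as lower in NMJ. Olfr295, an odorant receptor gene, illustrates them, with 168 to 2055 CPM (median 910.3) in NMJ and 1259 to 7134 CPM (median 3578) in xNMJ. The values of such genes cannot be read as the level of the gene named, and with insert size as a covariate the fall of Olfr295, -1.52, did not pass (adjusted p = 0.18).
In the edgeR quasi-likelihood fit with Benjamini-Hochberg adjustment at 0.05, 909 genes were higher in NMJ, which is 6.5% of those tested, and 706 were lower, which is 5.05%. Together 11.5% passed. The rises were large and the falls were shallow. Median log2 fold change was 2.88 among higher genes and -1.09 among lower ones, and 618 higher genes (68%) but only 57 lower genes (8.07%) differed at least 4-fold. Higher genes had a median level of 8.63 CPM over the 16 libraries, close to the 8.8 CPM of all tested genes. Lower genes had a median of 96.4 CPM. In 311 genes (2.22%) every NMJ library lay above every xNMJ library, and in 167 (1.19%) every NMJ library lay below.
How many genes count as lower depended on the scaling. The median log2 fold change over all tested genes was 0.00 with TMM factors, 0.56 with library totals alone and 0.56 when each library was scaled to its fibre markers, an alternative added after seeing the data. With library totals 2659 genes were higher (19%) and 210 lower (1.5%), so that 92.7% of calls were rises against 56.3% with TMM, and with fibre scaling 2643 were higher (18.9%) and 166 lower (1.19%). Of the 909 rises, 878 (96.6%) also passed under each of 5 other scalings (these 2, DESeq2 size factors, and either TMM or library totals after leaving out genes with a run of A or T). Of the 706 falls, 101 (14.3%) did so. Falls below are therefore relative to the median gene unless another scaling is named. Library totals contain the counts of the A or T run genes. Once these genes were left out, library totals gave 1563 higher and 250 lower genes, and of the 28 named falls that did not pass with all counts in the totals, 10 passed (Atp2a1, Ckm, Esrra, Fabp3, Mybpc1, Myh1, Pfkm, Rpl3l, Tnni2 and Tnnt3). Counts of rises and falls in a list are those with TMM unless another scaling is named. Over all tested genes the shares are 6.5% higher and 5.05% lower with TMM. They are 19% and 1.5% with library totals and 18.9% and 1.19% with fibre scaling. The energy lists are given with TMM, with library totals including or leaving out those genes, and with fibre scaling.

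**Figure D1:**
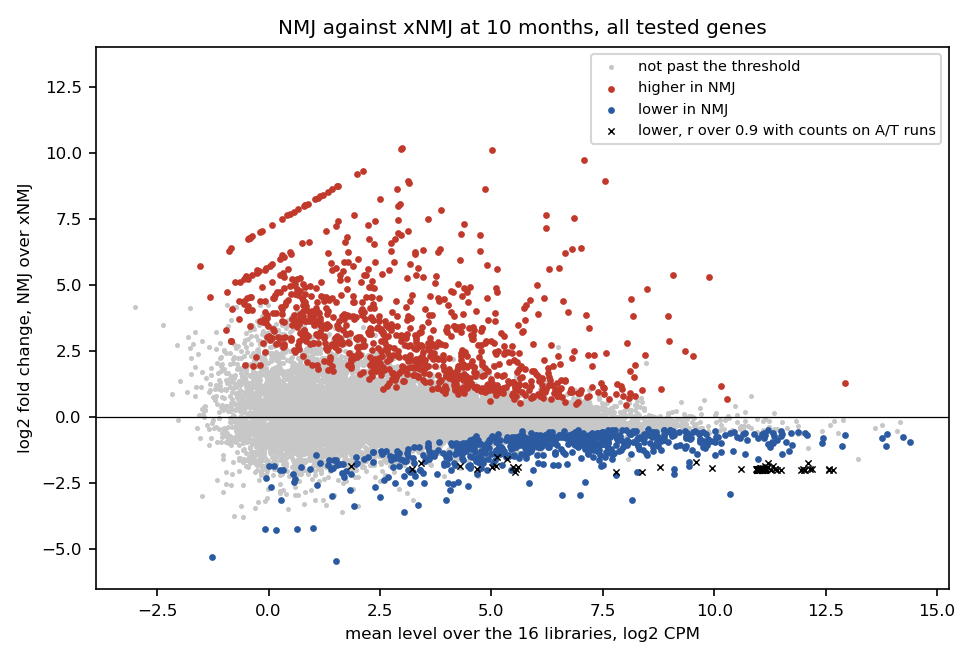
Log2 fold change of NMJ over xNMJ (y axis) against mean level over the 16 libraries of 10 months in log2 CPM (x axis) for the 13990 tested genes. Red points are the 909 genes higher in NMJ, blue points and black crosses the 706 lower in NMJ, and the crosses are the 80 genes whose counts followed those of genes with a run of A or T, which lie in a band near -2.

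Promoters of 4 genes are printed here because each holds a searched motif and because 3 of the genes were higher in NMJ and 1, Got1, was lower. They were chosen after the search. The stretches are the 250 bases before the RefSeq start on GRCm38.p6, 5′ to 3′ on the gene's strand, with the matched letters in capitals. Searched on both strands of the window from 250 bases before to 50 after the start were CCGGAA, a core bound by ETS factors, the E-box CAGCTG bound by myogenic factors, TGACG, part of the cAMP response element, and AAGGTCA, the core bound by estrogen-related receptors. None of the printed matches overlaps another.
Chrne, chr11:70619195-70619444, minus strand: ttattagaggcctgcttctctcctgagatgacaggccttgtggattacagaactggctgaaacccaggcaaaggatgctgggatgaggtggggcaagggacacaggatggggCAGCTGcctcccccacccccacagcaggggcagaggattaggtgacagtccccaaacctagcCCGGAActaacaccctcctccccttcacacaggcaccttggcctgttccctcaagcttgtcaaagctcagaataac
Chrna1, chr2:73580339-73580588, minus strand: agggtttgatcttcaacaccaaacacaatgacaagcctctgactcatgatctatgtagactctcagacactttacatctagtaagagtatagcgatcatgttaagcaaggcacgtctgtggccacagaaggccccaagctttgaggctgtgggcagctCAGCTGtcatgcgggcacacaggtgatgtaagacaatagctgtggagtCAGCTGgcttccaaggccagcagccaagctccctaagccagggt
Etv5, chr16:22439571-22439820, minus strand: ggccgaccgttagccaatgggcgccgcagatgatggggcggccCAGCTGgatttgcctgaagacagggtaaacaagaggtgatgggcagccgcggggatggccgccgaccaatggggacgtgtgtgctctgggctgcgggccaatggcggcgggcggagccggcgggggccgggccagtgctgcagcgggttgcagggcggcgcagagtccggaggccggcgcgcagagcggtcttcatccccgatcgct
Got1, chr19:43524606-43524855, minus strand: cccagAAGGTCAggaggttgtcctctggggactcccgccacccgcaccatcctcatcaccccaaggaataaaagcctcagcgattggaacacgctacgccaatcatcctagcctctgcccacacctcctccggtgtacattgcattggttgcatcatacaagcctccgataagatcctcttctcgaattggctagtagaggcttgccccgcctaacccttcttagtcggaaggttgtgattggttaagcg
The Chrne stretch holds CCGGAA from base -76 and CAGCTG from base -138. Chrna1 has CAGCTG at -92 and -44, Etv5 has it at -207, and Got1 has AAGGTCA at -245. Over 27025 RefSeq promoters, CCGGAA occurred in 15.2%, CAGCTG in 16.1%, AAGGTCA in 4.66% and TGACG, which none of the 4 stretches holds, in 21%. Among the 677 higher genes with a promoter in that table the shares were 15.5%, 18.3%, 2.22% and 26.3%, and among the 531 lower genes 21.1%, 16.6%, 4.14% and 28.6%, in the same order. Of all 10536 tested genes with a promoter there, 26.3%, 15.3%, 3.27% and 30.2% held these letters. No binding was measured.
Endplate genes were among the largest rises. Chrne, the adult ε subunit of the acetylcholine receptor, had 137 to 377 CPM (median 249) in NMJ and 0 to 1.12 CPM (median 0) in xNMJ (log2 fold change 9.72 ± 1.34, here and below ± SE of the fit with 8 libraries in each group, adjusted p = 3.76e-06). Its xNMJ libraries held 14 counts in all, and without xNMJ replicate 7 the difference was 10.74. Chrnd, the δ subunit, had 19.1 to 96.4 CPM (median 51.4) in NMJ and 0 to 0.346 CPM (median 0.0617) in xNMJ (8.64 ± 0.90, adjusted p = 2.59e-08). Chrna1, the α subunit, was present in every xNMJ library, with 329 to 652 CPM (median 568) in NMJ and 14 to 39.2 CPM (median 23.9) in xNMJ (4.47 ± 0.43, adjusted p = 4.74e-09). In none of these subunits did the groups overlap. Scaled for transcript length, mean TPM in NMJ was 443 for Chrne, 174 for Chrna1, 40.7 for Chrnb1 and 27.8 for Chrnd.
Of 16 tested genes for the receptor and its clustering, 11 rose, 2 were called lower and 3 did not pass. Acetylcholinesterase Ache (5.62 ± 0.63) and its collagen tail Colq (6.20 ± 0.82) rose, as did the kinase Musk (3.45 ± 0.53), the intermediate filament Nes (5.38 ± 0.71), the adhesion molecule Ncam1 (4.43 ± 0.43), the dystrophin relative Utrn (1.95 ± 0.32), its partner Sntb2 (1.87 ± 0.34) and the β subunit Chrnb1 (2.52 ± 0.41). Lrp4, the agrin receptor, was called lower (adjusted p = 0.00287), but its counts followed those of the genes with an A or T run and do not give its level. Rapsn (-0.29 ± 0.60), Dok7 (0.66 ± 0.56) and the sodium channel Scn4a (0.24 ± 0.23) did not pass (adjusted p = 0.825, 0.53 and 0.583), although Scn4a passed as higher with library totals (0.80, adjusted p = 0.01). Without xNMJ replicate 7 Colq was at 8.16, and without replicate 6 Ache was at 6.31.
Beyond the receptor, 11 of 27 tested ETS factors and feedback genes of ERK signalling were higher (40.7%, against 6.5% of all tested genes). The median was 1.10, and 2 members were lower. With library totals 15 were higher and 2 lower, against 19% and 1.5% of all tested genes. The ETS factor Etv5, on chromosome 16 at 22381309 to 22439719, had 268 to 527 CPM (median 357) in NMJ and 0 to 2.42 CPM (median 0.155) in xNMJ (8.95 ± 0.97, adjusted p = 5.26e-08). Dusp6, the phosphatase that inactivates ERK, had 61.1 to 318 CPM (median 237) in NMJ and 0 to 5.51 CPM (median 2.5) in xNMJ (6.36 ± 0.74, adjusted p = 1.84e-07). Rps6ka1, a kinase activated by ERK, had 74 to 199.8 CPM (median 158) against 0 to 4.49 CPM (median 0) (7.14 ± 0.95, adjusted p = 1.93e-06). Every NMJ library was above every xNMJ library for these 3 genes. Without xNMJ replicate 7 the differences of Etv5 and Rps6ka1 were 9.81 and 8.55. The inhibitor Spry1 (3.49 ± 0.45), the factor Etv1 (2.42 ± 0.36), the receptor Erbb3 (5.79 ± 0.89), which is also a Schwann cell marker, and Phlda1 (2.57 ± 0.52) rose too, and Erbb3 was at 7.23 without xNMJ replicate 1. Called lower were Spred3 (-1.74 ± 0.43) and Spry2 (-1.95 ± 0.46), and the counts of Spry2 belonged to the A or T run set. Neither of these falls passed with insert size as a covariate (adjusted p = 0.21 and 0.17).
Prkar1a, the type I regulatory subunit of protein kinase A, was among the most abundant raised genes. It had 1210 to 2304 CPM (median 1919) in NMJ and 27.4 to 118 CPM (median 36.5) in xNMJ (5.31 ± 0.54, adjusted p = 1.32e-08). With it, 5 of 30 tested genes of this pathway were higher and 5 lower (16.7% each), with a median of 0.07, against 10 higher and 1 lower with library totals. Over all tested genes 6.5% were higher and 5.05% lower, or 19% and 1.5% with library totals. The other higher genes were the exchange factor Rapgef3 (2.30 ± 0.45), the cyclase Adcy6 (2.27 ± 0.62) and the anchors Akap12 (2.10 ± 0.61) and Akap6 (0.82 ± 0.27). Lower were the phosphodiesterases Pde4a (-1.72 ± 0.31) and Pde4d (-1.07 ± 0.25), the G protein subunit Gnas (-0.70 ± 0.17), the inhibitor Pkia (-0.63 ± 0.16) and the mitochondrial anchor Akap1 (-0.96 ± 0.24), and of these 5 falls only Pde4a also passed with library totals. Without xNMJ replicate 4 Adcy6 was at 2.87, and the call of Akap6 was lost in 10 of 16 fits that each left out 1 library.
The 15 largest rises with separated groups and more than 3 counts in xNMJ took in several genes outside the classical endplate set. Crym, a thyroid hormone binding protein, had 163 to 308 CPM (median 224) in NMJ against 0 to 7.26 CPM (median 0) in xNMJ (7.54 ± 1.10, adjusted p = 8.54e-06), although with DESeq2 its adjusted p was 0.058. Its highest xNMJ value came from replicate 7, without which the difference was 11.17. Hs6st2, a heparan sulfate 6-O-sulfotransferase, had 125 to 185 CPM (median 145) against 0 to 3.69 CPM (median 0.177) (7.63 ± 0.98, adjusted p = 1.02e-06). Gatm, which makes the creatine precursor guanidinoacetate, had 15.1 to 49.9 CPM (median 26.9) against 0 to 0.711 CPM (median 0) (7.83 ± 0.90, adjusted p = 1.6e-07). The groups were apart in all 3. Without xNMJ replicate 7 Hs6st2 was at 9.67, and without replicate 8 Gatm was at 9.52.
Cacna2d3, an auxiliary calcium channel subunit, had 5.91 to 49.2 CPM (median 22.4) in NMJ and 0 to 0.693 CPM (median 0) in xNMJ (7.50 ± 0.83). The immediate early gene Arc (6.98 ± 0.90), the ubiquitin ligase Pdzrn4 (6.94 ± 0.94), which belongs to a family that binds MuSK, and M1ap (7.05 ± 1.11), a gene known from meiosis, were near 0 in xNMJ as well. S100b (7.32 ± 0.85) and the cadherin Cdh19 (6.74 ± 1.16) are Schwann cell genes, periostin Postn (6.88 ± 0.87) is a matrix gene, and Sfrp1 (6.88 ± 0.63) encodes a secreted Wnt antagonist. Adjusted p values of these 8 genes lay between 2.49e-09 and 0.000102. Left out 1 at a time, xNMJ libraries moved Postn to 10.29 (without replicate 7), M1ap to 8.74 and Arc to 8.57 (without replicates 8 and 1), Cacna2d3 to 8.55 (without replicate 6), S100b to 8.17 and Cdh19 to 7.70 (without replicates 3 and 5).
Some genes were so low in xNMJ that only a ratio of summed counts or a bound can be given. Col20a1, a collagen with interrupted triple helices, had 6682 counts over the NMJ libraries and 2 over the xNMJ libraries, a ratio of 1400 after scaling with an exact 95% counting interval from 387 to 11600. Sfrp5, another Wnt antagonist, had 1738 counts against 1, a ratio of 728 (interval 131 to 28800), and Hs3st3a1, a heparan sulfate 3-O-sulfotransferase, had 1717 against 2, a ratio of 360 (interval 99.4 to 2970). A further 31 raised genes had no count in any xNMJ library. Against a floor of 3 counts per library, a mean of 0.6 CPM, the cytokine-like Fam19a4 was at least 26-fold higher, the acute phase gene Saa1 at least 9.68-fold, the glial receptor Gpr37l1 at least 8.99-fold and the basement membrane collagen Col4a5 at least 7.79-fold. Nppa, atrial natriuretic peptide, was at least 26.6-fold higher. These bounds use the mean of NMJ, within which Nppa ranged from 0 to 78.7 CPM and Col4a5 from 0 to 17.1 CPM (median 3.11). Without NMJ replicate 7 the bound of Nppa was 11.6-fold, and without replicate 3 that of Col4a5 was 4.84-fold. These intervals and floors cover counting error only, since amplified reads that carry no molecular barcode do not count separate molecules.

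**Figure D2:**
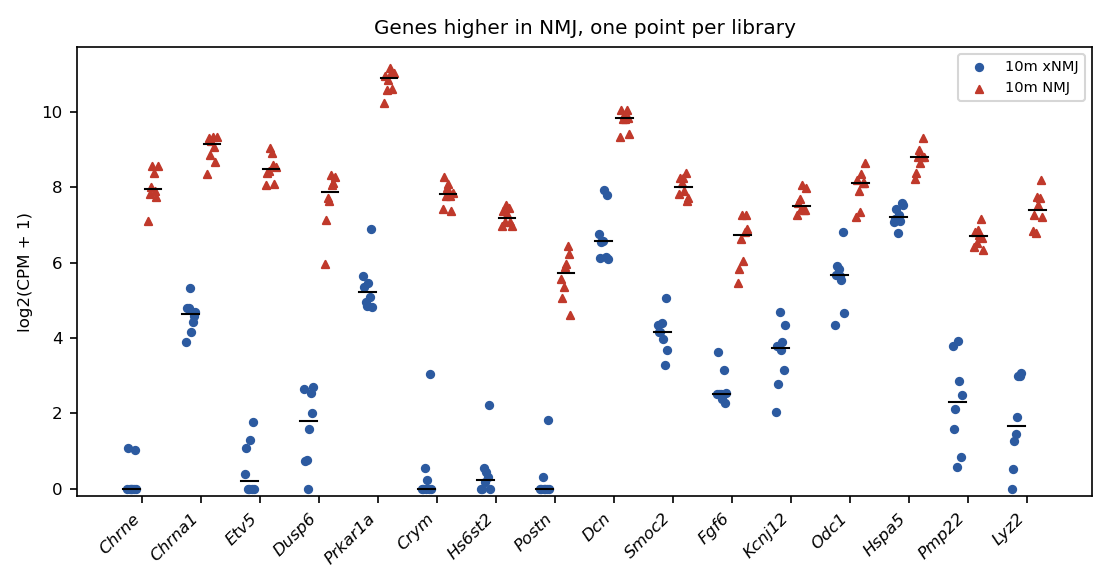
Level of 16 genes higher in NMJ in each library of 10 months, as log2(CPM + 1) on the y axis, with blue circles for the 8 xNMJ and red triangles for the 8 NMJ libraries and a black bar at each group's median. Every red point lies above every blue point of the same gene.

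Matrix genes were often higher and none of the 3 lists below had a fall. Of 25 tested basement membrane genes 15 were higher (60%, against 6.5% of all tested genes) with a median of 1.64, of 39 interstitial matrix genes 14 with a median of 1.57, and of 32 collagens 20 with a median of 2.19. For the first 2 lists the counts were 10 and 11 with insert size as a covariate and 17 and 22 with library totals. Smoc2, a basement membrane calcium-binding protein, had 198 to 332 CPM (median 258) in NMJ and 8.78 to 32.4 CPM (median 16.9) in xNMJ (3.88 ± 0.38, adjusted p = 6.87e-09). Decorin Dcn, the most abundant member, had 644 to 1067 CPM (median 911) in NMJ and 67.7 to 244 CPM (median 94) in xNMJ (2.88 ± 0.28, adjusted p = 5.12e-09). For both genes the groups were fully apart.
Among laminins, Lamb2, which encodes the β2 chain concentrated in the synaptic cleft, had 191 to 322 CPM (median 229.6) in NMJ and 14.3 to 98.3 CPM (median 65.2) in xNMJ (1.95 ± 0.30, adjusted p = 1.78e-05). The α2 chain Lama2 (3.20 ± 0.45) and γ1 chain Lamc1 (1.54 ± 0.31), shared by muscle laminins outside the synapse too, rose with it. Collagens included the transmembrane Col13a1 (5.39 ± 0.96), the basement membrane chain Col4a2 (1.58 ± 0.36), Col15a1 (2.73 ± 0.65), the fibrillar Col1a2 (1.75 ± 0.25) and Col3a1 (2.16 ± 0.63), Col6a2 (3.07 ± 0.51) and Col19a1 (3.46 ± 0.61). Lumican Lum (3.24 ± 0.48), fibrillin Fbn1 (2.33 ± 0.58) and versican Vcan (3.24 ± 0.86) also passed. Without xNMJ replicate 1 Col13a1 was at 7.06 and Vcan at 4.16, and without replicate 2 Col15a1 was at 3.66. Of 36 tested matrix proteases and inhibitors 8 were higher, among them Adamts1 (1.82 ± 0.27), Adam23 (4.87 ± 0.73), Mmp2 (3.37 ± 0.63) and Adam19 (3.14 ± 0.67), with Adam23 at 6.13 without xNMJ replicate 6 and Mmp2 at 4.12 without replicate 2. With insert size as a covariate 5 of the list were higher, and with library totals 14. The 1 called lower was Plau, which belonged to the A or T run set.
Of 38 heparan and chondroitin sulfate genes 12 were higher (31.6%, against 6.5% of all tested genes), with a median of 1.06. Only Extl1, a glycosyltransferase of chain growth, fell (-1.84 ± 0.34). The higher genes included core proteins as well as the sulfotransferases already named. Gpc4, a glypican, had 35.1 to 71.5 CPM (median 55.7) in NMJ and 0.533 to 10.9 CPM (median 3.55) in xNMJ (3.67 ± 0.53, adjusted p = 6.93e-06). Gpc3 (6.34 ± 0.76), the syndecans Sdc4 (2.40 ± 0.34) and Sdc2 (3.21 ± 0.55) and the chondroitin polymerase Chpf (3.23 ± 0.72) rose. Without xNMJ replicate 1 Gpc3 was at 7.63. The most abundant member, Gpc1 (-0.74 ± 0.26), did not pass (adjusted p = 0.0579), although it was called lower in the 10-month libraries alone (adjusted p = 0.028).
Secreted signals and their receptors are given by pathway, beside 6.5% higher and 5.05% lower over all tested genes. In the list of FGF, IGF, VEGF and PDGF genes, 9 of 39 were higher (23.1%) and 4 lower (10.3%), against 14 and 0 with library totals. Fgf6, a muscle growth factor, had 43.1 to 153 CPM (median 105) in NMJ and 3.8 to 11.4 CPM (median 4.7) in xNMJ (4.12 ± 0.46, adjusted p = 1.01e-07), and Pdgfa, which signals to mesenchymal cells, had 139 to 262 CPM (median 200.3) and 5.9 to 54.8 CPM (median 35.6) (2.49 ± 0.29, adjusted p = 2.35e-07). Its receptor Pdgfra (3.38 ± 0.58), Igf1 (2.14 ± 0.56), Fgf1 (1.85 ± 0.41), Igfbp4 (1.17 ± 0.20) and Igfbp6 (2.79 ± 0.69) rose. Without xNMJ replicate 7 Pdgfra was at 4.22, and without replicate 1 Igf1 was at 2.73. The angiogenic ligands Vegfb (-0.94 ± 0.21) and Vegfa (-0.79 ± 0.23), their receptor Flt1 (-0.82 ± 0.24) and Igfbp5 (-1.06 ± 0.26) were lower, but none of the 4 passed with library totals. Nor did Vegfa pass without xNMJ replicate 1 (adjusted p = 0.068) or Flt1 without replicate 4 or 8 (0.063 and 0.058).
Of 33 BMP and TGF-β genes 7 rose (21.2%) and none fell, among them the ligand Bmp5 (2.76 ± 0.67), the procollagen protease Bmp1 (3.41 ± 0.83), the secreted Fstl1 (1.72 ± 0.42) and the receptors Bmpr2 (1.08 ± 0.27) and Tgfbr2 (1.13 ± 0.33), with Bmp1 at 4.22 without xNMJ replicate 7. Of 23 Wnt genes 4 rose (17.4%) and 2 fell (8.7%). The rises were the antagonists Sfrp1 and Sfrp5, the inhibitor Nkd2 (6.29 ± 0.69) and the nuclear factor Lef1 (1.63 ± 0.41), and the falls were the intracellular transducer Dvl2 (-1.35 ± 0.20) and secreted Dkk3 (-3.57 ± 1.17). Dkk3 lost its call in 10 of 16 fits without 1 library (-2.58 without xNMJ replicate 1) and Nkd2 was at 7.01 without xNMJ replicate 5. In the Notch and Hedgehog list 3 of 21 rose (14.3%), Maml1 (3.69 ± 0.82), Hes1 (1.03 ± 0.24) and Gli1 (3.72 ± 0.94), the last at 4.50 without xNMJ replicate 1.
Neurotrophic factors and synaptic organizers passed as higher in 8 of 24 cases, with a median of 0.47, against 6.5% of all tested genes. Pleiotrophin Ptn, a heparin-binding growth factor, had 18.2 to 40 CPM (median 27.3) in NMJ and 0 to 0.889 CPM (median 0.273) in xNMJ (6.23 ± 0.66, adjusted p = 3.49e-08), and its relative midkine Mdk rose too (3.87 ± 0.88). Gdnf, a survival factor for motor neurons, had 737 counts in NMJ and 3 in xNMJ, a ratio of 103 (exact 95% counting interval 35.1 to 500). Others were Lgi4 (5.65 ± 0.78), needed for myelination, and the repulsive guidance cue Sema3a (2.67 ± 0.80). Left out 1 at a time, xNMJ libraries moved Mdk to 4.57 (without replicate 3) and Sema3a to 3.91 (without replicate 2). Nlgn1, called lower (-1.88 ± 0.39), had counts of the A or T run kind. Adhesion genes of neurons and synapses rose in 11 of 36 cases without a fall. Ncam1 had 74 to 164 CPM (median 94.7) in NMJ and 1.96 to 9.96 CPM (median 5.57) in xNMJ (4.43 ± 0.43, adjusted p = 5.12e-09), Chl1 reached 3.88 ± 0.46 and Cadm1 2.73 ± 0.53 (3.33 without xNMJ replicate 4). Of 43 cadherins and protocadherins 9 rose and none fell, and of 21 integrins 6 rose, led by Itgb5 with 162 to 336 CPM (median 242) against 14.6 to 91 CPM (median 41.5) (2.35 ± 0.27).

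**Figure D3:**
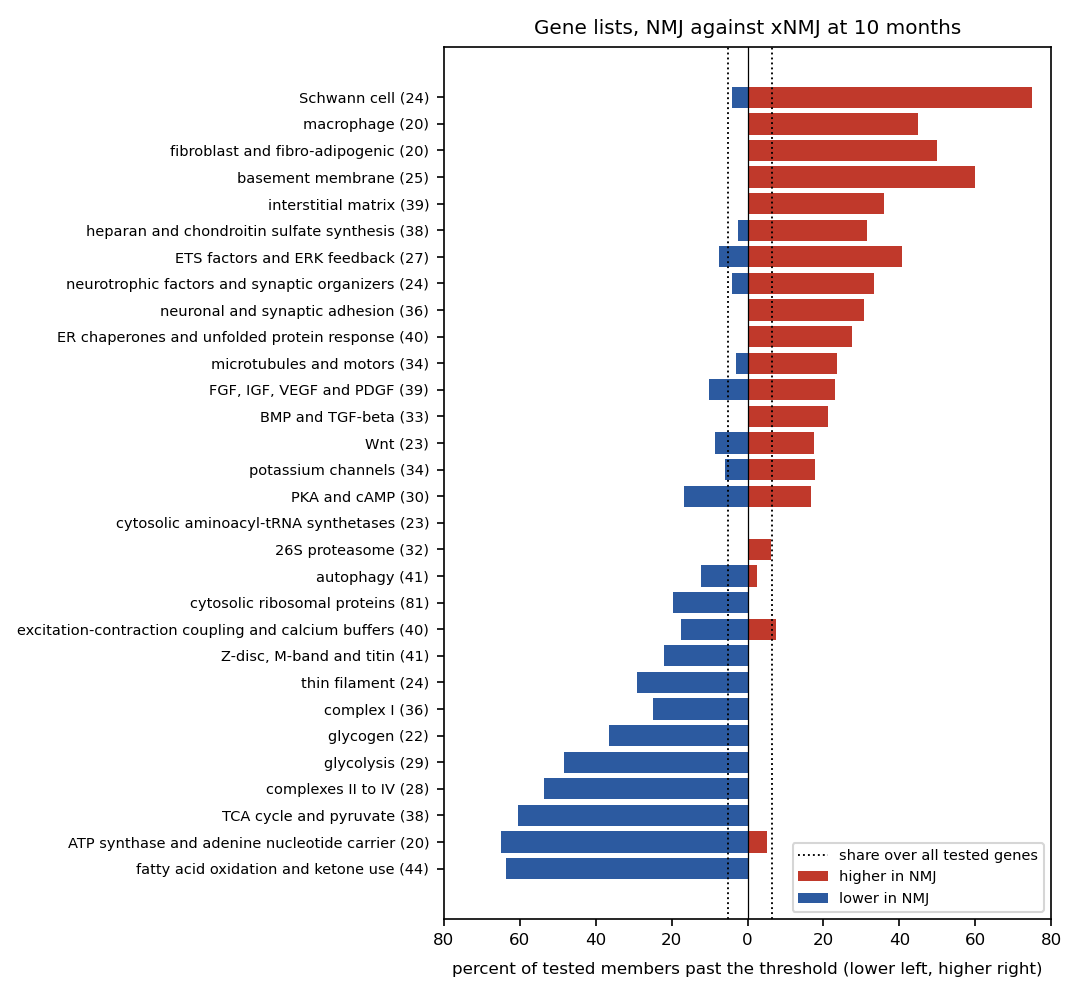
Percent of each list's tested members that passed as higher (red, to the right) or lower (blue, to the left) in NMJ at 10 months, with the number tested in parentheses. Dotted lines mark the shares over all tested genes, 6.5% higher and 5.05% lower. Of the lists drawn, Schwann cell and basement membrane genes reach furthest to the right and those of mitochondrial energy supply far to the left. With library totals the median over all tested genes was 0.56, and the medians of complex I, glycogen and ribosomal protein genes turned above 0.

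Channels changed by member. Kcnj12, an inward rectifier that holds the resting potential, had 154 to 264 CPM (median 181) in NMJ and 3.11 to 25.1 CPM (median 12.3) in xNMJ (3.97 ± 0.37, adjusted p = 3.15e-09). The delayed rectifiers Kcna2 (2.96 ± 0.35) and Kcna1 (5.25 ± 1.01), which are also axonal and glial genes, rose, and Kcna1 was at 10.29 without xNMJ replicate 1. Kcnc4 and Kcnc1, voltage-gated potassium channels of the same family, went the other way. Kcnc4 had 3.3 to 20.1 CPM (median 11.5) in NMJ and 23.5 to 72.8 CPM (median 40.7) in xNMJ (-1.91 ± 0.33, adjusted p = 0.000122), and Kcnc1 had 32.9 to 77 CPM (median 48.2) against 85.6 to 157 CPM (median 117) (-1.30 ± 0.23, adjusted p = 0.000134). In both genes every NMJ library was below every xNMJ library, and Kcnc1 did not pass with fibre scaling (adjusted p = 0.053). In all, 6 of 34 potassium channels were higher (17.65%) and 2 lower (5.88%), against 6.5% and 5.05% of all tested genes. Clcn1, the chloride channel that stabilises the fibre membrane, had 55.2 to 122 CPM (median 66) in NMJ and 14.3 to 35.3 CPM (median 27.8) in xNMJ (1.51 ± 0.25, adjusted p = 4.9e-05). Of 17 voltage-gated sodium and calcium channel genes, in which Clcn1 was counted, 4 rose, including Scn7a (2.50 ± 0.62, or 3.19 without xNMJ replicate 5), and the calcium channel subunit Cacnb1 was lower (-0.88 ± 0.22), though not with library totals (adjusted p = 0.27).
Microtubule genes were higher in 8 of 34 cases (23.5%, against 6.5% of all tested genes) and lower in 1. With insert size as a covariate 4 were higher, and with library totals 16, against 19% of all tested genes. Among the 8 were the destabiliser Stmn1 (5.42 ± 1.03, or 6.79 without xNMJ replicate 4), the vesicle motor Kif1a (4.92 ± 0.97) and the tubulins Tuba1a (1.15 ± 0.32) and Tuba1b (1.07 ± 0.31). Nestin, with 696 to 1380 CPM (median 1087) in NMJ and 4.95 to 53.8 CPM (median 24.3) in xNMJ, and vimentin Vim (0.93 ± 0.30) rose among 6 intermediate filament genes, though Vim lost its call in 9 of 16 fits without 1 library. Desmin Des was at 0.12 ± 0.20 (adjusted p = 0.781), and passed as higher with library totals (0.66, adjusted p = 0.02). The giant linkers Macf1 (1.75 ± 0.36) and Syne1 (1.38 ± 0.37), which connect nuclei to the cytoskeleton and the synapse, also passed. Of 35 genes of the dystrophin complex and costamere 7 rose and 4 fell, against 16 and 2 with library totals and 17 and 0 with fibre scaling. Utrophin rose as given above, and dystrophin Dmd was called lower at -0.58 ± 0.17, but it was at -0.02 with library totals and did not pass.
Of genes for folding in the endoplasmic reticulum 11 of 40 rose, with a median of 0.68 and no fall. Hspa5, the chaperone BiP, had 297 to 635 CPM (median 444) in NMJ and 109 to 192 CPM (median 148) in xNMJ (1.52 ± 0.17, adjusted p = 1.22e-07) without overlap. Xbp1, a factor of the unfolded protein response, had 26.7 to 117 CPM (median 78.3) and 4.39 to 38 CPM (median 16.8) (2.08 ± 0.33, adjusted p = 3.14e-05), with overlap. Pdia6 (2.17 ± 0.41), P4hb (1.22 ± 0.25) and Hsp90b1 (0.87 ± 0.20) rose. With TMM factors 2 of 32 translocon genes, 2 of 47 genes of transport to the Golgi and 3 of 37 genes of N-glycan synthesis were higher. These shares, 6.25%, 4.3% and 8.1%, were near the 6.5% over all tested genes. Library totals raised the 3 counts to 22, 16 and 11, and that of the folding genes to 24, beside 19% of all tested genes. Which step had the larger share of rises therefore depended on the scaling. Among cytosolic chaperones 5 of 33 rose, such as Dnaja1 (1.49 ± 0.31) and Hsp90aa1 (0.94 ± 0.24), and 1 fell, against 19 and 0 with library totals.
Of 42 polyamine and amino acid genes 5 were higher and 6 lower, against 11 and 4 with library totals and 10 and 4 with fibre scaling. Beside these stand 6.5% higher and 5.05% lower over all tested genes with TMM factors. Library totals gave 19% and 1.5% over all tested genes, and fibre scaling 18.9% and 1.19%. Ornithine decarboxylase Odc1, the first step of polyamine synthesis, had 149 to 402 CPM (median 277) in NMJ and 19.3 to 112 CPM (median 49.7) in xNMJ (2.35 ± 0.29, adjusted p = 3.89e-07), and Sat1, which acetylates polyamines, rose as well (2.74 ± 0.50). The serine gene Psat1 (5.20 ± 1.20), the asparagine gene Asns (3.86 ± 1.27) and Azin1 (1.82 ± 0.47) made up the 5 higher, of which Psat1 was at 6.56 without xNMJ replicate 6 and Asns lost its call in 9 of 16 fits without 1 library and was at 5.24 without xNMJ replicate 3. The transaminases Gpt2 (-1.41 ± 0.22), Gpt (-1.82 ± 0.40) and Got1 (-1.23 ± 0.20) were among the 6 lower. Metallothionein Mt3 had 1168 counts in NMJ and 1 in xNMJ, a ratio of 489 (exact 95% counting interval 87.7 to 19300), and the extracellular dismutase Sod3 rose (3.47 ± 0.58).
Several abundant raised genes belonged to none of the groups above. Apod, a lipid carrier, had 524 to 1119 CPM (median 627) in NMJ and 4.24 to 97.4 CPM (median 12.4) in xNMJ (4.85 ± 0.68, adjusted p = 5.08e-06). Aplp2, a relative of the amyloid precursor, had 519 to 1235 CPM (median 932) and 27.6 to 122 CPM (median 60.6) (3.82 ± 0.36, adjusted p = 3.15e-09). Cd24a, a surface glycoprotein, had 786 to 1657 CPM (median 1221) and 146 to 449 CPM (median 231) (2.32 ± 0.22, adjusted p = 3.15e-09). Apoe was at 212 to 319 CPM (median 266) against 6.93 to 46.7 CPM (median 24.9) (3.39 ± 0.36). Groups were apart in these 4 genes, which were named after their values were seen, and Apod was at 5.70 without xNMJ replicate 7.
Markers of other cell types moved with these rises, and their part in them was not tested. Of 24 tested Schwann cell markers 18 were higher, with a median of 3.41, against 6.5% of all tested genes, here and for the cell types below. Pmp22, a protein of peripheral myelin, had 80 to 141 CPM (median 103) in NMJ and 0.494 to 14.1 CPM (median 3.96) in xNMJ (4.26 ± 0.68, adjusted p = 3.23e-05), and Mbp, myelin basic protein, had 40.5 to 85.5 CPM (median 66.9) and 0.707 to 9.5 CPM (median 2.27) (3.95 ± 0.55, adjusted p = 4.22e-06), both without overlap. Prx rose too (6.26 ± 0.70). Cldn19 was lower (-1.37 ± 0.36), with r = 0.78 to the A or T run counts, but did not pass with library totals (adjusted p = 0.098). Without xNMJ replicate 7 Prx was at 6.90. The summed level of all 29 markers in the files was 1056 to 11057 CPM in NMJ and 828 to 2021 CPM in xNMJ, of which Cryab, also a fibre gene, made up 83.9%, and the ranges overlapped. Neuron markers were scarce, with 6 of 22 tested, none past the threshold in edgeR with TMM factors (2 at an unadjusted p under 0.05, and 1 higher with each of DESeq2, limma, library totals and fibre scaling), a summed level of 6.64 to 56.8 CPM in NMJ and 5.64 to 30.4 CPM in xNMJ, 5 at 0 in every NMJ library and 5 at 0 in every xNMJ library. Slc5a7, the choline transporter of motor axons, and Stmn3 were at 0 in both regions.
Fibroblast markers were higher in 10 of 20 cases (median 1.53), with a summed level of 1633 to 2459 CPM in NMJ against 371 to 763 CPM in xNMJ, where Dcn gave 38.9%. Besides genes named above they included Cxcl14 (3.68 ± 0.45) and Gsn (0.87 ± 0.22). Macrophage markers were higher in 9 of 20 (median 2.56) and summed to 330 to 686 CPM against 31.3 to 128 CPM. Lyz2, lysozyme, gave 37.2% of that sum, with 109.8 to 294 CPM (median 169.8) in NMJ and 0 to 7.47 CPM (median 2.23) in xNMJ (5.64 ± 0.69, adjusted p = 4.62e-07). The others were Mrc1 (3.84 ± 0.82), Fcgr3 (4.01 ± 0.89), Ctss (2.72 ± 0.61), Cd68 (5.35 ± 1.26), C1qb (3.31 ± 0.88), Tyrobp (2.76 ± 0.74), C1qa (3.84 ± 1.06) and Cd14, with 124 counts in NMJ and 1 in xNMJ, a ratio of 52 (exact 95% counting interval 9.16 to 2070). Single libraries moved several of them, to 4.97 for Mrc1 (without xNMJ replicate 6), 4.95 for Fcgr3 (without replicate 7) and 4.96 for C1qa (without replicate 3). C1qb was at 4.04 or 4.07 without replicate 3 or 7, and Cd68 at 8.52 without xNMJ replicate 7 and 3.89 without NMJ replicate 7. The MHC class II gene H2-Aa rose too (3.25 ± 0.63).
Mast cell markers passed in 4 of 10 cases, the proteases Cma1, Mcpt4 (4.94 ± 1.01), Tpsb2 (5.60 ± 1.25) and Cpa3, the last at least 4.47-fold higher over xNMJ libraries without a count, or 2.69-fold without NMJ replicate 4. Cma1 had 1778 counts in NMJ and 1 in xNMJ, a ratio of 745 (exact 95% counting interval 134 to 29400). The summed level was 17.3 to 104 CPM in NMJ and 1.64 to 17.2 CPM in xNMJ, so that the lowest NMJ library lay just above the highest xNMJ library. Without xNMJ replicate 6 or 7 Mcpt4 was at 5.72 or 5.60, and without NMJ replicate 4 Tpsb2 was at 4.98. Kit (0.57 ± 1.22), the receptor that defines these cells, did not pass (adjusted p = 0.834). Satellite cell markers rose in 4 of 13 cases, Spry1, Sdc4, Megf10, with 259 counts against 2, and Itga7 (1.58 ± 0.46), the last not without NMJ replicate 7 (1.35, adjusted p = 0.058), while the defining factor Pax7 was at 0.47 ± 1.10 (adjusted p = 0.853).
Markers of vessels, fat and blood passed as lower in 2 of 22 endothelial genes (9.09%), 2 of 9 adipocyte genes (22.2%) and 1 of 9 lymphocyte and neutrophil genes (11.1%), against 5.05% of all tested genes. None of 22 endothelial markers was higher in the edgeR fit with TMM factors or library totals, at an unadjusted p under 0.05 with TMM factors, or with DESeq2 or limma, while fibre scaling gave 1, and Flt1 and Aqp1 (-0.87 ± 0.28) were lower, neither of them with library totals. Aqp1 lost its call in 10 of 16 fits without 1 library. The list had summed levels of 277 to 427 CPM in NMJ and 317 to 653 CPM in xNMJ. Among 17 pericyte and smooth muscle markers only Cspg4 passed (1.92 ± 0.56, but with adjusted p = 0.054 without NMJ replicate 5), none of 5 red cell markers did, by any of these tools, and of 9 lymphocyte and neutrophil markers only Cxcr2 was called, as lower (-0.63 ± 0.17), and not with library totals (-0.08). Adipocyte markers had 2 of 9 lower, Car3 and Plin1 (-1.62 ± 0.46), the latter not with library totals (adjusted p = 0.095). Their summed level was 421 to 736 CPM in NMJ against 2100 to 3247 CPM in xNMJ, of which Car3, also abundant in muscle fibres, gave 83%.
Enzymes were among the largest falls with separated groups. Car3, carbonic anhydrase 3 of slow and oxidative fibres, on chromosome 3 at 14863512 to 14872523, had 170.4 to 537 CPM (median 292) in NMJ and 1754 to 2959 CPM (median 2374) in xNMJ (-2.89 ± 0.24, adjusted p = 5.95e-10). With library totals its difference was -2.34. The arginine deiminase Padi2 had 6 to 26.9 CPM (median 17.4) and 41.3 to 141 CPM (median 104) (-2.49 ± 0.33, adjusted p = 1.86e-06), and Dglucy, D-glutamate cyclase, had 1.03 to 9.28 CPM (median 6.68) and 19.9 to 47.4 CPM (median 41.7) (-2.61 ± 0.33, adjusted p = 7.44e-07). No NMJ library reached the lowest xNMJ library in these genes, and all of them passed under the 5 other scalings.
Ccdc36, a gene known from meiosis, had 9.83 to 136 CPM (median 49.6) in NMJ and 154 to 1363 CPM (median 424) in xNMJ (-3.14 ± 0.65, adjusted p = 0.00102), but its fall did not pass with insert size as a covariate (adjusted p = 0.15). Aqp4, the water channel of the fast fibre membrane, had 0.0965 to 12 CPM (median 3.49) and 14.9 to 44.2 CPM (median 25.5) (-2.75 ± 0.61, adjusted p = 0.00192). The epoxide hydrolase Ephx2 (-2.14 ± 0.41), the mitochondrial translocase Timm22 (-2.13 ± 0.35), the centrosomal Cep295 (-1.85 ± 0.33), D10Jhu81e (-1.82 ± 0.29), the noncoding Tug1 (-1.96 ± 0.32) and Gm15816 (-2.06 ± 0.29) were further large falls with separated groups, besides Kcnc4, Acads and Lpl. Tug1 had r = 0.88 with the A or T run counts. All 15 of the largest falls with separated groups were also below 0 at 30 months.
Fatty acid oxidation had the lowest median of all lists. Of 44 tested genes for fatty acid uptake, oxidation and ketone use 28 were lower (63.6%, against 5.05% of all tested genes) and none was higher, with a median of -1.06. With library totals 15 were lower, or 19 without the A or T run genes, and with fibre scaling 12, again without a rise, and 12 passed with TMM and each of the 5 other scalings, while limma on TPM called 18 lower and 2 higher. Lipoprotein lipase Lpl, which releases fatty acids at the vessel wall, had 219 to 512 CPM (median 274) in NMJ and 698 to 1563 CPM (median 1033) in xNMJ (-1.83 ± 0.23, adjusted p = 7.36e-07). Oxct1, which activates ketone bodies, had 128 to 274 CPM (median 184) and 396 to 655 CPM (median 536) (-1.44 ± 0.16, adjusted p = 1.01e-07), and the hydratase Echs1 had 57 to 96.2 CPM (median 83.9) and 156 to 337 CPM (median 263) (-1.62 ± 0.19, adjusted p = 1.85e-07). These 3 genes did not overlap between groups.
The fatty acid transporter Cd36 (-1.38 ± 0.24), the trifunctional protein subunit Hadha (-1.41 ± 0.20), the thiolase Acaa2 (-1.37 ± 0.22), the isomerase Eci1 (-1.31 ± 0.21), the lipase Pnpla2 (-1.18 ± 0.19), the dehydrogenases Acads (-1.84 ± 0.41) and Acadm (-1.21 ± 0.24) and the carrier protein Fabp3 (-1.29 ± 0.32) were lower. Acads did not pass with insert size as a covariate (adjusted p = 0.17), nor Fabp3 with library totals (adjusted p = 0.089, or 0.0188 without the A or T run genes) or Pnpla2 with fibre scaling (adjusted p = 0.062). Ppara, the nuclear receptor that drives these genes, was low but lower still in NMJ, at 0.114 to 2.54 CPM (median 0.903) against 1.83 to 24.2 CPM (median 7.35) (-3.03 ± 0.72, adjusted p = 0.00359), and the lipid droplet gene Plin5 followed (-2.14 ± 0.55).
In the TCA cycle and pyruvate list 23 of 38 genes were lower and none higher, with a median of -0.77, against 5.05% lower over all tested genes. With library totals 6 were lower, or 12 without the A or T run genes, and with fibre scaling 4. Mdh2, malate dehydrogenase, had 512 to 776 CPM (median 689) in NMJ and 1250 to 1860 CPM (median 1703) in xNMJ (-1.31 ± 0.17, adjusted p = 8.84e-07), and Idh2, isocitrate dehydrogenase, had 34.2 to 136 CPM (median 79.5) and 135 to 648 CPM (median 372) (-2.19 ± 0.32, adjusted p = 9.18e-06). The ranges of Idh2 overlapped slightly and those of Mdh2 did not. Ogdh (-1.27 ± 0.16) and Got1, whose promoter is printed above, were further members.
Respiratory chain genes were lower in 9 of 36 cases for complex I (median -0.45), 15 of 28 for complexes II to IV (median -0.61) and 13 of 20 for ATP synthase and its carriers (median -0.70), against which the only rise was the ATP synthase inhibitor Atpif1 (1.28 ± 0.38), a call lost without NMJ replicate 4 or 8 or xNMJ replicate 3 (adjusted p = 0.055, 0.053 and 0.05). Cyc1 of complex III had 284 to 470.1 CPM (median 417) in NMJ and 669 to 1238 CPM (median 853) in xNMJ (-1.16 ± 0.18, adjusted p = 1.47e-05), and Atp5a1 of ATP synthase had 1232 to 1886 CPM (median 1483) and 2258 to 3842 CPM (median 3610) (-1.14 ± 0.16, adjusted p = 4.22e-06), both without overlap. Atp5a1 did not pass with fibre scaling (adjusted p = 0.0566). Their medians were shallower than that of fatty acid oxidation, and whether this bears on the calls lost under other scalings was not tested. Over all tested genes 5.05% were lower and 6.5% higher with TMM factors. These shares were 1.5% and 19% with library totals and 1.19% and 18.9% with fibre scaling. With library totals 2, 2 and 4 genes of the 3 lists were lower and 0, 2 and 1 were higher, and the median of complex I turned to 0.10. Without the A or T run genes library totals gave 5, 7 and 10 lower and 0, 1 and 1 higher. With fibre scaling 0, 2 and 1 were lower and 1, 2 and 1 higher. With the replicate number as a block 21, 23 and 14 were lower and 0, 0 and 1 higher, but the labels tie no number to an animal.
Genes of sugar use were lower more often than higher with TMM factors, beside 6.5% higher and 5.05% lower over all tested genes. Of 29 glycolytic genes 14 were lower (median -0.61), among them Pfkm with 603 to 799.9 CPM (median 744) in NMJ and 1135 to 1743 CPM (median 1346) in xNMJ (-0.92 ± 0.13, adjusted p = 2.88e-06) and Hk2, hexokinase 2, with 313 to 536 CPM (median 468) and 747 to 1278 CPM (median 1059) (-1.25 ± 0.23, adjusted p = 0.000196). With library totals 2 were lower and 3 higher, without the A or T run genes 8 and 0, and with fibre scaling 2 and 2. Hk2 passed in every scaling, whereas Pfkm did not pass with library totals (adjusted p = 0.06, or 0.00135 without the A or T run genes) or fibre scaling (0.16). Of 22 glycogen genes 8 were lower (median -0.33), while with library totals 4 were lower and 2 higher and the median turned to 0.22. Without the A or T run genes 6 were lower and 2 higher, and with fibre scaling 2 and 2. The 8 included the glycogen-targeting subunit Ppp1r3a (-1.19 ± 0.20), while Phkg1 among them belonged to the A or T run set. In the creatine and adenylate list 5 of 23 were lower and 2 higher with TMM factors. Library totals gave 1 and 5, or 3 and 3 without the A or T run genes, and fibre scaling gave 1 and 5. Both library totals and fibre scaling moved the median over all tested genes to 0.56. The mitochondrial creatine kinase Ckmt2 had 1681 to 2305 CPM (median 1755) and 2405 to 6032 CPM (median 4936) (-1.29 ± 0.22, adjusted p = 0.000111), and the cytosolic Ckm was lower with TMM factors (-1.08 ± 0.23) but did not pass with library totals (adjusted p = 0.097, or 0.0316 without the A or T run genes). Brain-type Ckb went up (2.18 ± 0.56), as did Gatm.

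**Figure D4:**
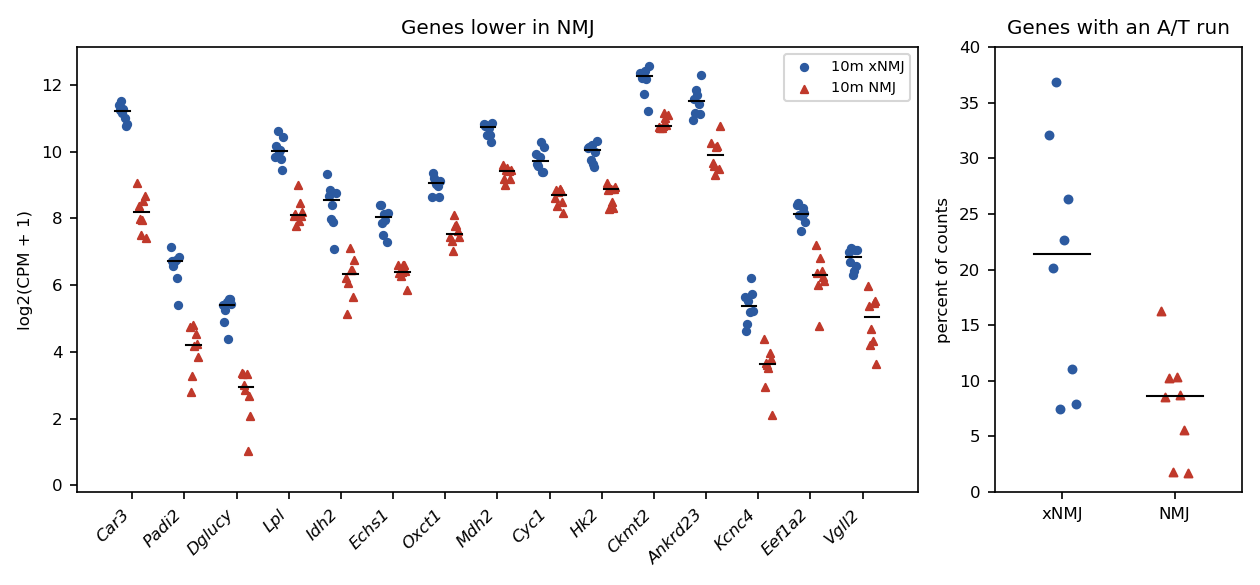
Left, level of 15 genes lower in NMJ in each library of 10 months as log2(CPM + 1), with blue circles for xNMJ, red triangles for NMJ and a black bar at each median. Red points lie below all blue points except in Idh2. Right, percent of counts in the genes with a run of A or T by library, median 21.4% in xNMJ and 8.62% in NMJ.

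Some contractile genes were lower with TMM factors, beside 6.5% higher and 5.05% lower over all tested genes. Of 20 fibre markers 7 were lower and none higher, with a median of -0.57 that became -0.02 with library totals, where 1 was higher and none lower. Without the A or T run genes library totals gave 5 lower and none higher. Fibre scaling centres these markers by its construction and gives no count for them. Lower were Tnnt3 (-0.92 ± 0.17), Atp2a1 (-0.87 ± 0.19), Ckm, Tnni2 (-0.80 ± 0.18), Acta1 (-0.75 ± 0.18), Myh1 (-1.10 ± 0.27) and Tpm1 (-0.64 ± 0.19, with its call lost at -0.55 and -0.53 without xNMJ replicate 4 or 7), and the other 13 ranged from -0.64 for Cox6a2 to 0.15 for Neb. The fast myosin Myh4 was at -0.54 ± 0.22 (adjusted p = 0.11). Myosins were lower in 3 of 21 cases, thin filament genes in 7 of 24, and Z-disc, M-band and titin genes in 9 of 41, and none rose. Library totals gave no fall in the first 2 of these lists and 2 falls in the third, Ankrd23 and the A or T run gene Fhl3. Library totals gave 3, 3 and 7 rises, beside 19% higher and 1.5% lower over all tested genes. Without the A or T run genes they gave 1, 3 and 2 falls and 1, 1 and 2 rises. Ankrd23, a stretch-response protein bound to titin, had 636 to 1760 CPM (median 962) in NMJ and 1965 to 5016 CPM (median 2913) in xNMJ (-1.58 ± 0.22, adjusted p = 4.22e-06). None of the 7 fibre markers named as lower passed with library totals, but Tnnt3, Tnni2, Atp2a1, Myh1 and Ckm did so without the A or T run genes, Tnnt3 with an adjusted p of 5.8e-05. Mybpc1 (-1.11 ± 0.20) did not pass with library totals (adjusted p = 0.052) and passed without those genes (0.00321).
Paralogues of the calcium pump differed in direction with TMM factors. The fast-fibre pump Atp2a1 was lower as above, while Atp2a2, the pump of slow and cardiac muscle, had 10.9 to 57.1 CPM (median 40.3) in NMJ and 0.889 to 19.3 CPM (median 11.6) in xNMJ (1.70 ± 0.46, adjusted p = 0.011), and Casq2 rose (1.36 ± 0.40, adjusted p = 0.0216, or 0.054 without NMJ replicate 7). The fall of Atp2a1 did not pass with library totals (adjusted p = 0.22, or 0.00431 without the A or T run genes). In the whole list of 40, 3 rose and 7 fell, beside 6.5% higher and 5.05% lower over all tested genes. Library totals gave 8 higher and 0 lower, beside 19% and 1.5% over all tested genes. They gave 5 and 2 without the A or T run genes, and fibre scaling gave 11 and 0. Slow myosin Myh7 (-1.49 ± 0.68) and the 2A myosin Myh2 (-1.44 ± 0.93) did not pass, with adjusted p = 0.178 and 0.379.
Among regulators, the muscle coactivator Vgll2 had 11.5 to 61.3 CPM (median 32.7) in NMJ and 78 to 136 CPM (median 115) in xNMJ (-1.76 ± 0.34, adjusted p = 0.0004), and the muscle elongation factor Eef1a2 had 26.6 to 145 CPM (median 77.4) and 195 to 349 CPM (median 279) (-1.79 ± 0.30, adjusted p = 5.86e-05), both without overlap. Esrra, a nuclear receptor of mitochondrial genes, was lower (-1.09 ± 0.22) with TMM factors but not past the threshold with library totals (adjusted p = 0.092, or 0.0396 without the A or T run genes). Myog, a myogenic factor, had 0.376 to 7.21 CPM (median 1.6) in NMJ and 0 to 1.85 CPM (median 0) in xNMJ (3.02 ± 0.99, adjusted p = 0.0418) and was the only 1 of 30 muscle transcription factors called higher with TMM factors, while 4 were lower. Library totals gave 6 higher and 1 lower in this list and fibre scaling 4 and 1. Over all tested genes 6.5% were higher and 5.05% lower with TMM factors. The shares were 19% and 1.5% with library totals and 18.9% and 1.19% with fibre scaling. The call of Myog was lost in 11 of 16 fits without 1 library, and without xNMJ replicate 6 the difference was 5.06.
Housekeeping systems are given beside the 6.5% higher and 5.05% lower over all tested genes. No cytosolic tRNA synthetase of 23 passed in either direction in edgeR with TMM factors, 0 of them at an unadjusted p under 0.05, or with DESeq2, while limma on TPM called 4 higher and edgeR called 5 higher with library totals and 5 with fibre scaling. Higher were 2 of 32 proteasome genes, 1 of 44 chromatin enzymes and 1 of 38 splicing genes, but with library totals 18, 11 and 15 were higher and with fibre scaling 17, 10 and 12. A list of 41 genes was drawn up for the pathway of mTORC1, the kinase complex that the study's title names, and had a median of 0.08. Higher were 2 of them, Slc38a9 (1.32 ± 0.42) and Prr5 (3.00 ± 0.80, or 3.60 without xNMJ replicate 7). Prr5 encodes a subunit of the other mTOR complex, mTORC2. Gatsl2 was lower (-0.72 ± 0.24). With library totals or fibre scaling 11 genes of this list were higher and none lower. Slc38a9 lost its call in 6 and Gatsl2 in 10 of 16 fits without 1 library. Cytosolic ribosomal proteins were lower in 16 of 81 cases (19.8%) and higher in none, median -0.32. With library totals 12 were higher and none lower, median 0.23, beside 19% higher and a median of 0.56 over all tested genes. The sign of their median therefore turned with a scaling that moved all genes, and their median stayed below that of all tested genes. Rpl3l, the muscle form of Rpl3, was at -0.89 ± 0.14 and did not pass with library totals (adjusted p = 0.086, or 0.00201 without the A or T run genes). Of 59 genes for the mitochondrial ribosome and import 7 were lower (11.9%) and none higher, against 1 lower and 4 higher with library totals, 1 and 0 without the A or T run genes and 1 and 9 with fibre scaling. Autophagy genes were lower in 5 of 41 cases (12.2%) and higher in 1, and lysosomal genes higher in 6 of 51 (11.8%), led by the macrophage genes Ctss and Cd68, and lower in 3. With library totals 7 autophagy genes were higher and 2 lower, and 18 lysosomal genes were higher and none lower. Over all tested genes that scaling gave 19% higher and 1.5% lower.
A pair of further abundant transcripts differed between regions. Malat1, a nuclear noncoding RNA, had 6157 to 17366 CPM (median 10344) in NMJ and 1735 to 8194 CPM (median 4827) in xNMJ (1.28 ± 0.27, adjusted p = 0.00131). Gm42417, a predicted gene, had 312 to 628 CPM (median 406) in NMJ and 699 to 1867 CPM (median 1102) in xNMJ (-1.41 ± 0.19, adjusted p = 2.63e-06). Lars2, a mitochondrial leucyl-tRNA synthetase and more abundant than either on average in xNMJ, had 874 to 12362 CPM (median 3257) in NMJ and 2150 to 32317 CPM (median 9912) in xNMJ, with overlap, and did not pass (-1.58 ± 0.58, adjusted p = 0.0733), although it did with DESeq2 (adjusted p = 0.028). The kit did not mark strand, so reads of overlapping or antisense genes cannot be told apart.
At 30 months, in libraries that share none with those above, the same contrast called 700 genes higher (5%) and 595 lower (4.25%). Of the 909 rises at 10 months 472 (51.9%) were also called at 30 months, which is 67.4% of the rises there, and of the 706 falls 435 (61.6%) were, 73.1% of the falls there. None was called in opposite directions. Without 30m xNMJ replicate 5, 836 genes were higher and 640 lower at 30 months, and 517 and 470 at both ages. Fitted differences at 30 months had the same sign for 871 of the 909 and 687 of the 706. At 30 months 25 of 44 fatty acid oxidation genes were lower, 18 of 38 in the TCA list, 22 of 28 in complexes II to IV and 15 of 36 in complex I. Higher were 10 of 25 basement membrane genes and 19 of 24 Schwann cell markers.
The difference of the region effect between ages was tested as an interaction, and no gene passed in edgeR (709 had an unadjusted p under 0.05, and the smallest adjusted p was 0.156). For Chrne the log2 fold change was 9.72 ± 1.34 at 10 months and 4.51 at 30 months, but of its counts in 30m xNMJ 1062 lay in replicate 5 and 1 in the other 7 libraries, so the value at 30 months rests on that library. Without it Chrne had 30232 counts in 30m NMJ against that 1, a ratio of 10100 (exact 95% counting interval 1810 to 398000). For Etv5 the values were 8.95 and 4.38, or 6.31 at 30 months without replicate 5, and for Postn 6.88 and 5.66, or 6.40 without it. For Car3 they were -2.89 and -2.68 and for Lpl -1.83 and -1.69, and without replicate 5 they were -2.74 and -1.70. Some genes past the threshold at 10 months were near 0 at 30 months, such as Adcy6 at 0.08 after 2.27 ± 0.62 at 10 months.

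**Figure D5:**
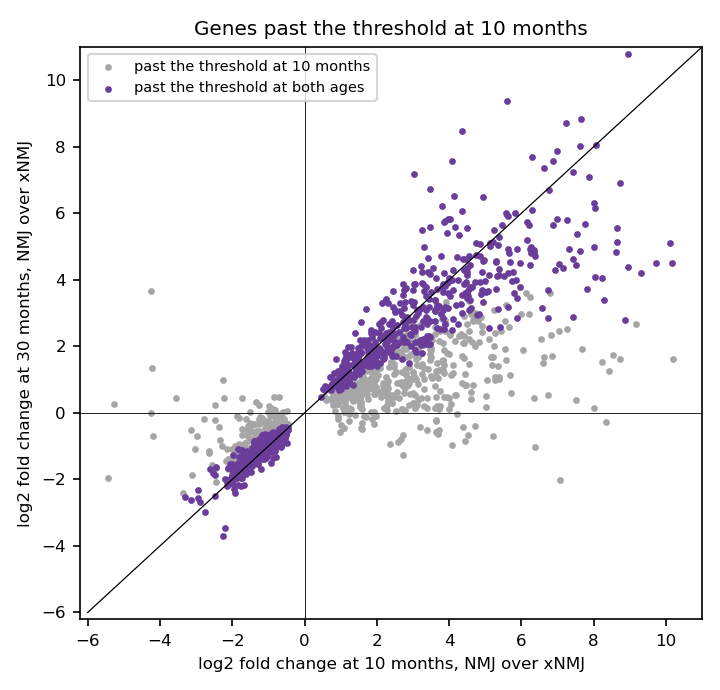
Log2 fold change of NMJ over xNMJ at 30 months (y axis) against that at 10 months (x axis) for the 1615 genes past the threshold at 10 months, with the line of equal values. Purple points, 472 rises and 435 falls, passed at both ages, and grey points passed at 10 months only.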

How the data were processed

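RNA of captured regions was amplified with the SMART-Seq v4 kit and sequenced without molecular identifiers. The authors trimmed reads with Cutadapt 1.9.1, aligned them with kallisto 0.43.1 to Ensembl protein-coding transcripts on GRCm38 and counted them per gene, and a read that fitted several transcripts was shared among them. The deposited table also holds genes that GENCODE M21 annotates as noncoding, such as Malat1. The deposited gene counts are whole and carry no normalization. The deposited TPM values are the same counts divided by transcript length and scaled to a common total, and they served for levels between genes and for 1 alternative on log2(TPM + 1). Labels gave each library its group and insert size.
Counts were fitted with edgeR 4.0.16 (R 4.3.3, quasi-likelihood test, TMM factors) over all 32 libraries in 4 groups, for genes with at least 1 CPM in at least 8 libraries, with Benjamini-Hochberg adjustment over the 13990 genes tested and a threshold of 0.05. Fold changes are on the log2 scale. The fit was tested on simulated data before use. Single library measures were compared by exact two-sided permutation over 12870 splits (SciPy 1.17.1). Alternatives were DESeq2 1.42.0, limma 3.58.1 on TPM, other scalings and filters, insert size as a covariate, the 10-month libraries alone, a replicate block and leaving out each library. Scaling to fibre markers and leaving out genes with a run of at least 31 A or T were chosen after seeing the data.
The gene lists and the rule for named genes were chosen with earlier results of these data known. Named were the 15 largest rises and falls with separated groups and a mean of at least 10 CPM, the members of each list with the smallest p or the highest level, members of lists of 20 or fewer, and the 5 most abundant genes. Others were named after their values were seen, and some genes that the rule names are not reported here. Positions are from GENCODE M21 and promoters from RefSeq, both on GRCm38. The labels do not say that a replicate number marks a shared animal, and correlated deviations did not reach the limit set for pairing in every pair, so the fit without a block was kept.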

Additional observations from a re-analysis of the deposited data

Results flagged for a closer look

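Among 166 groups of 8 values (genes given in full and library measures), 15 held a library far from the other 7, where chance flags about 1 in 20. In xNMJ, replicate 7 was highest for Prkar1a (6.89, here and below log2(CPM + 1)), Crym (3.05), Hs6st2 (2.23) and Postn (1.82), and lowest for Atp5a1 (11.1). Gatm was highest in xNMJ replicate 8 (0.775), Cacna2d3 in replicate 6 (0.760) and Arc in replicate 1 (0.950). Lamb2 was lowest in xNMJ replicate 1 (3.94) and Pdgfa in replicate 3 (2.79). In NMJ, Gpc4 was lowest in replicate 3 (5.17), Xbp1 in replicate 1 (4.79) and Echs1 in replicate 8 (5.86). NMJ replicate 8 also had the shortest insert, 52 bp, and NMJ replicate 6 the lowest share of counts in fibre markers, 14.8%.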

How the results depend on the processing

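The direction of change held for every named gene past the threshold under all alternatives tried, with 1 exception: Pkia was at 0.04 with limma on log2(TPM + 1). Of 230 named genes past the threshold, 54 lost that call in at least 1 setting and 15 lost it without 1 library. By setting, 31 lost it with fibre scaling, 28 with library totals, 26 with insert size as a covariate and 23 with limma on TPM. Not all of these losses are given beside the gene. The fold of 58 moved by over 1.5 times without 1 library.
The count of higher genes rose to 2659 with library totals, 2681 with limma on TPM, 2643 with fibre scaling and 1563 with library totals after leaving out genes with a run of A or T. The count of lower genes was 210, 237, 166 and 250 in the same order and 434 with insert size as a covariate, the cause of which was not tested. Genes higher at both ages numbered 1493, 1735, 1582 and 847 under these 4 scalings. Genes lower at both ages numbered 61, 36, 27 and 113, and 273 with insert size as a covariate. DESeq2 gave 1228 higher and 814 lower, DESeq2 size factors 954 and 639, no filter 999 and 640, and the 10-month libraries alone 717 and 693.
Without 1 library at a time the counts ranged from 802 to 915 higher and 610 to 707 lower, from 436 to 472 higher at both ages and 406 to 432 lower at both ages, and the interaction called 0 to 1 genes, the 1 without 10m xNMJ replicate 3. The difference in mean insert size ranged from 14.3 to 25.6 bp, and without 10m NMJ replicate 8 it passed (25.6 bp, exact permutation p = 0.000311). The difference in mean library total ranged from 3397194 to 4745274 counts.
Further folds that moved over 1.5 times were those of genes whose ratios or bounds are given in place of a fit.
With the replicate number as a block 1032 genes were higher and 797 lower, among them 791 of the 909 rises and 638 of the 706 falls. Complex I then had 21 of 36 genes lower and complexes II to IV 23 of 28. Of the named genes 6 lost their call with the block and 3 gained one. Gpc1 was called lower with the block (adjusted p = 0.0078). The labels give a number and no shared animal. Of 8 pairs at 10 months 4 had correlated deviations over 0.1 (lowest -0.0016, highest 0.187, mean 0.089), and 4 pairs correlated best with their own number, which is a hint from the data that some numbers pair. The mean for other numbers, -0.013, is nearly fixed by centring each group on its own mean, so it adds no separate evidence. The share of A or T run counts was lowest in replicates 4 and 8 in both regions (7.47% and 7.9% in xNMJ, 1.83% and 1.74% in NMJ).
Depth limits the genes near 0 in xNMJ, where a floor of 3 counts is a mean of 0.6 CPM.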
